A study of Mus musculus with 2 samples.

Results

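Antisense and bidirectional noncoding genes are transcription units that lie across a protein-coding gene on the other strand, or that leave the same promoter region in the other direction. The genes described here carry the GENCODE M21 type antisense or bidirectional_promoter_lncRNA and had at least 10 long reads summed over 2 libraries, with Kcnq1ot1, Peg13 and names starting with Snhg left out. This gave 175 genes, 144 antisense and 31 bidirectional, out of 3149 annotated genes of these types and 55536 annotated genes in all. They were selected on their own read counts. The tissue was cerebral cortex from the left side, from adult B6NCrl mice (another label gives the strain as C57BL/6) aged 6 months, with no treatment or altered allele named. It was read as 2 libraries of total RNA, given as biological replicates 1 and 2 of 1 group, so no condition was compared. The 2 tissue samples carried the same donor record and were not stated to come from separate animals, so the spread between them may be technical, and tests between them compare 2 libraries with counting noise. One label field names the tissue as male and another gives the sex as not collected.

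Transcription from many mammalian promoters runs in both directions. The noncoding product is often short-lived, but some are spliced, polyadenylated and stable. An antisense transcript that crosses a coding gene can pair with its mRNA, collide with its transcription or alter the chromatin of its promoter, and many have no known function. A long read can show whether such a transcript has introns of its own. The splice sites of an intron give a spliced read its strand, whereas an unspliced read is placed on a strand by its orientation alone. The deposited counts were not stated to use strand, so an unspliced read of one of these genes cannot be told apart from a read of the coding gene on the other strand.

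Replicate 1 held 1306424 reads and replicate 2 held 1304133, and 1 read stood for 0.765 and 0.767 CPM (CPM is a count scaled to a library total of 1e+06). A count of 0 allowed up to 3 reads, or 2.30 CPM. All intervals cover counting error only. Markers of cortical cells were present, and markers of 1 cell type did not move together between libraries. Of excitatory neuron genes, Slc17a7 had 130 and 36 reads, Neurod6 81 and 93, Neurod2 41 and 31 and Tbr1 39 and 30. Of inhibitory neuron genes, Gad1 had 227 in each library and Gad2 72 and 142. Of astrocyte genes, Slc1a2 had 648 and 822 and Gfap 110 and 63. The choroid plexus gene Ttr had 73 and 46. The part of such differences in the results below was not tested. In bulk tissue, fewer cells of a type and less RNA per cell cannot be told apart.

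The promoter regions between a noncoding gene and its coding neighbour show how closely some of these units are packed. The following 5 sequences are the whole gap between the outermost annotated starts of the pair, with no exon of either, in RefSeq promoter windows of GRCm38.p6 (mm10), written 5′ to 3′ on the strand of the noncoding gene. Capitals mark CCAAT or GGGCGG on either strand (ATTGG and CCGCCC on the other), which are the letters of the CCAAT box and the GC box.
Cep83os to Cep83: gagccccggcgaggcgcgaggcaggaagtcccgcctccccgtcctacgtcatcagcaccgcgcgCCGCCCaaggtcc
2610306M01Rik to Aak1: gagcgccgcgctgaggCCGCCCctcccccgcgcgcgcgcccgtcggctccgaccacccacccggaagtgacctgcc
2810029C07Rik to Mark3: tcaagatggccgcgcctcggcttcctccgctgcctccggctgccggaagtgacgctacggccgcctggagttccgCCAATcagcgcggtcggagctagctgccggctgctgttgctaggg
0610009L18Rik to Actg1: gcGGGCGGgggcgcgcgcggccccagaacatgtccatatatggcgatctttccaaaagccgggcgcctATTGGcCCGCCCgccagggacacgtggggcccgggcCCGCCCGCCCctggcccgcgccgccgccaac
2810013P06Rik to Ankrd11: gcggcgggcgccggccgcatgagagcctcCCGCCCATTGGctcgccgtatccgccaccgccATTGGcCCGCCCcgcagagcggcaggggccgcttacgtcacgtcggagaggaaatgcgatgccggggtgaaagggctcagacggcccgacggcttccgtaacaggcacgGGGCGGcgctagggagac
The gap of Cep83os lay at chr10:94688577-94688653 (minus strand) and held 77 bases. The gap of 2610306M01Rik lay at chr6:86849441-86849516 (minus strand) and held 76 bases. For 2810029C07Rik it was chr12:111574403-111574522 (minus strand), 120 bases, and for 0610009L18Rik chr11:120348543-120348677 (plus strand), 135 bases. The gap of 2810013P06Rik lay at chr8:123042278-123042465 (plus strand) and held 188 bases. All 5 were GC-rich, between 69.2% and 81.6%, with 11 to 26 CpG dinucleotides each. The level of the coding gene beside such a gap ranged widely. Actg1, which encodes cytoplasmic gamma actin, had 4046 and 2946 reads in replicates 1 and 2, against 30 and 21 for 0610009L18Rik. Cep83, which encodes a protein of centriole appendages, had 63 and 21, against 42 and 45 for Cep83os.

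Of the 175 genes, 88 could be matched by symbol to a RefSeq promoter window of 300 bases (250 before and 50 after the start). The RefSeq start lay within 100 bases of the annotated gene start in 58 of them. A CpG-rich window, with GC content of at least 50% and an observed to expected CpG ratio of at least 0.6, was held by 62.5% of the 88. The share was 33.5% of all 32851 windows and 70.9% of the windows of 8750 coding genes with at least 10 reads. The 2 gene sets were given windows by unlike rules. A noncoding gene had the window nearest its annotated start, and a coding gene the one of lowest coordinate. GGGCGG on either strand was found in 58.0% of the matched windows and in 35.7% of all windows, CCAAT in 42.0% and 37.4%, and TATAAA in 5.68% and 13.6%. A match is a string of letters and not a shown binding site. GGGCGG was held by 65.4% of the coding windows. Of the 88 matched genes, 66 were led by spliced reads, and 66.7% of these had a CpG-rich window. Only 8 were led by unspliced reads in partner exons, and 2 of these had one. Among 12 matched genes inside their partner, GGGCGG was found in 25%.

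The coding partner of each gene was the protein-coding gene on the opposite strand that shared the most bases with it or, with no overlap, the one whose start was nearest. Every one of the 175 had such a partner, with 171 distinct partners, 4 of them (Ankrd11, Ccnd2, Ppp4r3a and Ttyh1) shared by 2 noncoding genes. In 78 cases the genes stood head to head, running apart from their starts, with overlapping bodies in 58 and a gap in 20. In 55 cases they ran into each other tail to tail. The noncoding gene lay inside the coding gene in 33 cases and contained it in 9. The median distance between the starts was 450 bases head to head, with 42 of 78 within 500 bases, and 46694 bases tail to tail. By the nearest start instead of the largest overlap, 43 genes had another partner, head to head in 40 of them. Sp3os is an example. It overlapped Gm11084 most, but its start lay 1022 bases from that of Sp3, a transcription factor gene with 16 and 25 reads.

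The 175 genes held 3575 reads in replicate 1 (0.274% of the library) and 4192 in replicate 2 (0.321%), or 2975 ± 338 CPM (SD, n = 2). Since reads chose the genes, levels are given as a description. The median gene had 20 reads over both libraries, 9 had at least 100, and 86 had under 20. The 5 most abundant genes held 36.8% of the reads, and Gm20659 alone held 17.6%. At the edge of the rule, 15 genes had exactly 10 reads and were included, and 25 had 9 and were not. In all, 884 genes of these types had 1 to 9 reads and 2090 had none. All but 1 of the 175 were seen in both libraries, the exception being St8sia3os.

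The share of spliced reads varied with the position of the gene relative to its partner. A read was called spliced where its deposited model had at least 2 exons. The median spliced share was 83.3% head to head, 9.68% tail to tail, 4.76% for genes inside their partner and 50% for those that contain it. At least 50% of reads were spliced in 54 of 78, 20 of 55, 13 of 33 and 5 of 9 genes in the same order. No spliced read was found in 12, 25, 14 and 2. Bidirectional genes had a median of 83.9% and antisense genes 45.0%. These arrangements rest on the partner of largest overlap. By the nearest start, 117 genes stood head to head. The 67 of these with starts within 500 bases had a median of 80%, against 39.0% for all other genes. Head to head genes had the highest median in each library, 84.5% in replicate 1 and 82.5% in replicate 2, followed by genes that contain their partner, with 75% and 60%. The order of the other two was not stable, with 1.03% and 11.1% tail to tail and 12.5% and 0% inside the partner. No test was made of these shares, because genes are not replicates of a condition.

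**Figure D1:**
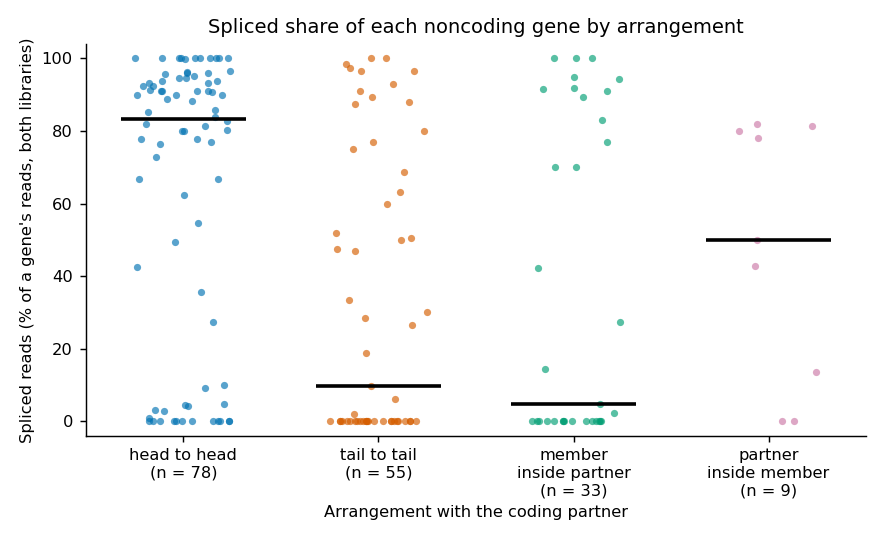
Each point is 1 noncoding gene. The vertical axis is the percent of its reads, over both libraries, on models of at least 2 exons, the horizontal axis its arrangement with the coding partner (with sideways scatter for legibility), and black bars are medians. Genes cluster near 0% and above 70%, with the upper cluster fuller head to head (median 83.3%) and the lower one fuller tail to tail (9.68%) and inside the partner (4.76%).

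Other gene types with at least 10 reads gave a background for these shares. Over all 175 genes the median was 54.5%, with 53 genes (30.3%) lacking a spliced read. For 153 lincRNA genes, a type meant for genes apart from coding genes, the median was 76.2% and 17.6% lacked a spliced read. Not all were free of overlap. Of 58 lincRNA genes with at least 10 unspliced reads, 11 had these mostly in exons of a coding gene. Protein-coding genes had a median of 86.6% over 11125 genes, and 2.58% lacked a spliced read. Head to head genes thus had a median near that of coding genes, and the other arrangements lay below the lincRNA genes.

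Reads were then divided by where they lie. Spliced reads made up 41.8% of the reads of the 175 genes in replicate 1 and 37.9% in replicate 2, with exact Clopper-Pearson 95% limits of 40.2 to 43.5% and 36.5 to 39.4%. Unspliced reads were placed in exons of a gene where at least 50% of the bases of their model lay in them. Those in annotated exons of the coding partner, and by less than 50% in the gene's own, made up 38.1% (36.5 to 39.7%) and 42.7% (41.1 to 44.2%). A read placed in partner exons by this rule may still cover exons of the gene itself. The shares include 197 reads of 2 genes on models of 1 base, whose extent is not known. Most of these were of Gm48091, which is tail to tail with its partner. Unspliced reads over the gene's own exons made up only 11.4% and 10.4%. By the same rule the rest, 6.46% and 6.42%, lay in exons of neither gene, and 2.24% and 2.60% in exons of both. The share over partner exons was 2.26% and 0.601% head to head, against 58.8% and 62.6% tail to tail and 70.5% and 76.1% for genes inside their partner. The share for genes inside their partner rested largely on 1 gene, Gm20659, described below. Spliced reads were the largest kind in 95 genes, with 3401 reads in all. Reads over partner exons were the largest kind in 32 genes, which held 3153.

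**Figure D2:**
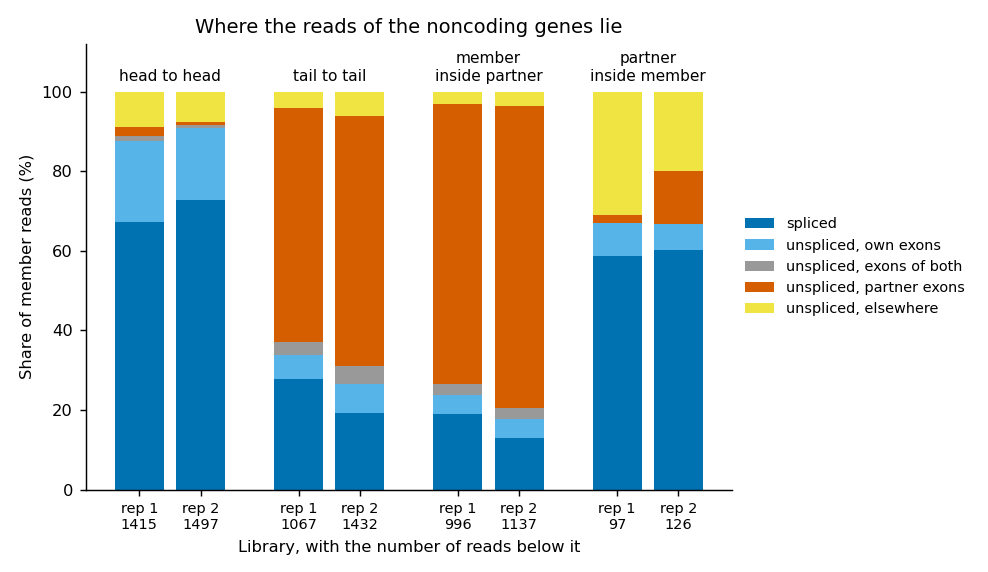
Stacked bars show the percent of reads of each kind in each library (rep 1, rep 2) for the 4 arrangements, with the number of reads under each bar. Blue is spliced and orange is unspliced over exons of the coding partner. Orange fills 58.8% to 76.1% of the tail to tail and member inside partner bars and at most 2.26% of the head to head bars. Most of the orange in the member inside partner bars is the single gene Gm20659.

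The most abundant gene of all, Gm20659, belonged to the second kind. It lies at chr11:101971143-101971859 on the plus strand, inside the last part of Dusp3, which encodes a dual-specificity phosphatase and is read from the minus strand. The libraries held 637 and 733 reads of Gm20659, a level of 525 ± 52.7 CPM, and 648 and 784 of Dusp3. Of the 1370 reads of Gm20659, 1369 were unspliced, and 0 of these lay mostly in exons of Gm20659 while 100% lay in exons of Dusp3. The leading model was the same span in both libraries, chr11:101971143-101972948. It starts where the annotated gene starts and runs past its end, so it covers the gene body as well as exons of Dusp3. Over this span, unspliced reads of the 2 strands numbered 637 on the plus strand and 611 on the minus strand in replicate 1, and 732 and 729 in replicate 2. All minus-strand reads among these were assigned to Dusp3. The 2 strands of this span were therefore overlapped by almost equal numbers of unspliced reads in each library. Spliced reads of Dusp3 were not counted here, and coverage by base was not measured. All genes inside their partner together held 702 and 865 unspliced reads over partner exons, and 637 and 732 of these were of Gm20659.

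Other abundant genes of this kind varied in how evenly unspliced reads were divided between the strands. Gm15738, tail to tail with Mrtfb, a coactivator of serum response factor, had 169 and 193 reads, all unspliced and in Mrtfb exons. The other strand held 170 and 183 unspliced reads over the same spans. 4930470G03Rik had 92 and 121 reads, none spliced, in exons of the zinc finger gene Zscan26, beside 121 and 114 on the other strand. It is annotated as bidirectional, and its start lay 587 bases from that of Pgbd1, which had 2 reads in each library. Gm48091, across the cell adhesion gene Opcml, had 70 and 128 reads, none spliced. Of these, 69 and 127 were on a model of 1 base as deposited, so their extent is not known and the strands are not compared. Gm15337, across Arhgap26, departed from equality, with 96 and 91 unspliced reads beside 11 and 29. Its own strand held more unspliced reads in each library.

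In 85 of the 175 genes at least 10 reads were unspliced, 4441 reads in all, with Gm48091 and its model of 1 base included. Unspliced reads of the other strand overlapped the same span by at least 1 base in 67 of these 85, were at least as many in 37, and were within 2-fold in 28. The median ratio of the other strand to the gene's own was 0.70, against 0.462 in 58 lincRNA genes counted in the same way. Dividing these genes by exons sets part of the contrast that follows, because partner exons are where reads of the coding gene lie. Where the unspliced reads lay mostly in partner exons and not in the gene's own, the other strand had at least as many in 21 of 32 genes and none in 1. Where they lay mostly in the gene's own exons and not in the partner's, it had at least as many in 4 of 26 genes and none in 13. The 4 were Tug1 (25 reads beside 38), AC109619.1 in Macrod1 (28 beside 79), Gm45606, head to head with Slc43a2 (23 beside 85), and CT010496.1, head to head with Mtcl1 (17 beside 54). Other genes of this second set had few or no reads on the other strand. 2810013P06Rik, a gene of 1 exon whose start lies 189 bases from that of Ankrd11, had 51 and 72 unspliced reads, all on the annotated transcript, beside 1 and 0 on the other strand. Gm47163, which starts 62 bases from the signalling adaptor gene Shc2, had 78 and 18 such reads beside 0 in either library. For 2610306M01Rik, beside the endocytic kinase gene Aak1, the values were 17 and 16 beside 0 and 0. An unspliced model is thus not by itself a sign of reads on both strands.

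**Figure D3:**
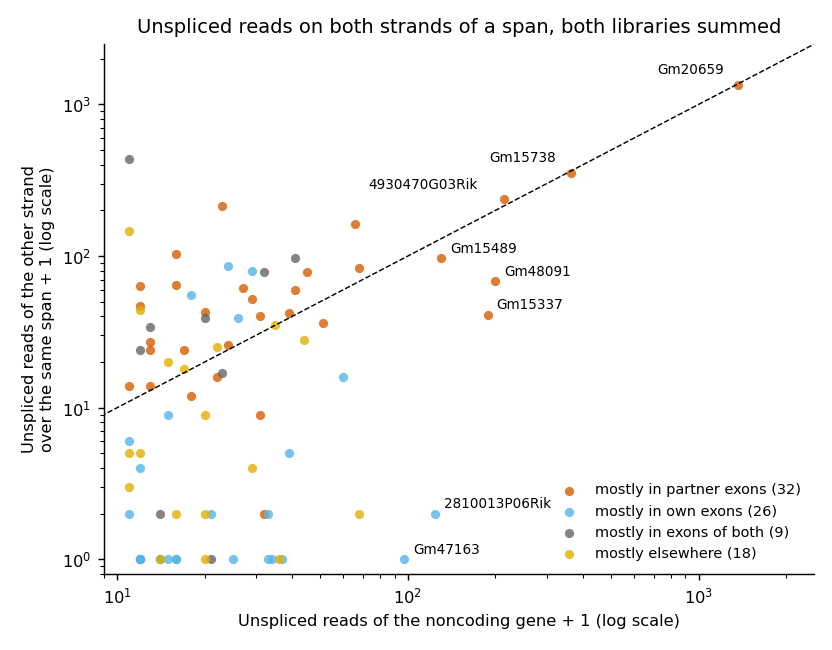
Each point is 1 of 85 noncoding genes with at least 10 unspliced reads, summed over both libraries. The horizontal axis is its unspliced reads + 1, the vertical axis the unspliced reads of the other strand over the same span + 1, both on log scales, and the dashed line marks equality. Gm20659, Gm15738 and 4930470G03Rik, in partner exons (orange), lie on the line, while 2810013P06Rik and Gm47163, in their own exons (light blue), lie at the bottom.

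The same kind of read was also found outside the annotated genes. Models that TALON, the program used for the deposited annotation, had added as antisense to known genes held 58907 reads (4.51%) in replicate 1 and 81160 (6.22%) in replicate 2. Of these, 2.56% and 1.70% were spliced, against 41.8% and 37.9% for the 175 annotated genes. Added antisense reads lay over 95 of the partners, and in 12 cases they outnumbered the reads of the annotated gene. The annotated genes thus held few of the antisense reads and a larger spliced share of them.

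The junctions of the leading transcripts of 4 genes led by spliced reads show what such reads join. Each line gives the last 20 bases of exon 1 in lower case and the first 20 of exon 2 in capitals, from the GENCODE M21 transcript.
Ndufb1-ps: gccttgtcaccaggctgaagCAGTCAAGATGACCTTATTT
Tug1: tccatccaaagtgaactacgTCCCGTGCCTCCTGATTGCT
Sp3os: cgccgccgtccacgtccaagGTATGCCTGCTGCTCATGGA
Cep83os: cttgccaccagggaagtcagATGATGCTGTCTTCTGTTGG
The first intron of Ndufb1-ps lay at chr12:101969638-101975659, 6022 bases, and that of Tug1 at chr11:3645524-3646556, 1033 bases, both on the minus strand. Those of Sp3os and Cep83os lay at chr2:72979596-72987527 (plus strand), 7932 bases, and chr10:94678448-94688232 (minus strand), 9785 bases. The exon boundaries shown belong to the transcript with the most reads of each gene.

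Ndufb1-ps, annotated as a bidirectional noncoding gene and named after a subunit gene of mitochondrial respiratory complex I, was the most abundant spliced member. It had 329 and 386 reads, or 274 ± 31.2 CPM, and 99.7% and 100% of them were spliced. Its head to head partner Cpsf2, a subunit of the mRNA cleavage and polyadenylation complex, had 43 and 39. Ndufb1-ps was the higher of the pair in both libraries, by 8.77 ± 1.59 times. It is counted as noncoding by its annotated type alone, and whether it encodes a protein was not tested. Of its reads on known transcripts, 87.2% and 85.9% were of 861 bases and 12.8% and 14.1% of 511 bases, so the isoform mix differed by less than 2 percentage points between libraries. Reads are set side by side between genes without length scaling, taking 1 long read as 1 transcript. Whether length or amplification changed the recovery of reads was not tested.

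Tug1, a conserved noncoding RNA known from retinal development and gene silencing, had 51 and 93 reads, 82.4% and 82.8% spliced. Its head to head partner Morc2a, a chromatin ATPase gene whose start lies 482 bases away, had 7 and 9. Tug1 was 8.81 ± 2.15 times its partner. This and the ratio of Ndufb1-ps were the highest means among pairs with at least 10 reads in each gene, and they differed by less than their SD. Its difference between libraries had a log2 ratio of 0.86 and an adjusted p of 0.00709 (exact binomial test), under the 2-fold required for a call. On known transcripts, 58.5% and 65.8% of its reads were of the 2-exon form of 6719 bases and 34.1% and 30.3% of the 3-exon form of 5112 bases.

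Other spliced genes stood above or below their neighbours. 2810468N07Rik had 36 and 60 reads, above the 20 and 25 of Sox8, a glial transcription factor gene whose start lies 328 bases away. Sp3os had 50 and 46 reads, 94.0% and 97.8% spliced, and exceeded both Gm11084 (2 and 1) and Sp3. Cep83os stood at 42 and 45, with 85.7% and 82.2% spliced. Gt(ROSA)26Sor, the noncoding gene of the ROSA26 locus that is widely used for transgenes in mice, had 34 and 25 reads. Its start lay 32 bases from that of Setd5, a chromatin regulator gene with 9 and 10 reads, and it overlapped Thumpd3, with 50 and 59. Trmt61b, typed as antisense in this annotation although its symbol is that of a tRNA methyltransferase gene, had 32 and 45 reads against 2 and 4 for Spdya. Each of these 5 genes had at least 80% of its reads spliced over both libraries.

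Genes active in inhibitory neurons were represented by Dlx6os1, also called Evf2, which overlaps Dlx6, a homeobox gene of forebrain interneurons. Dlx6os1 had 12 and 13 reads, 75% and 84.6% spliced, and Dlx6 had 0 and 1. Dlx1as had 10 and 9, and so had Dlx1, another interneuron homeobox gene, which lies inside it on the other strand. Among other antisense genes studied in brain development or imprinting, Emx2os had 2 and 2 reads, Nkx2-2os 4 and 5, Airn 4 and 1 and Tsix 0 and 4. Uchl1os had 0 and 1, Dio3os 0 and 2, and Zeb2os, Nespas, Wt1os and Hotairm1 none. All of these were too low for the rule.

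Some genes were spliced in ways that the annotation lacks. Across the 175 genes, 411 chains of introns were outside the annotation, and 75 of them, in 50 genes, were found in both libraries with 425 reads. A930015D03Rik, whose body contains H2-T24, a nonclassical histocompatibility gene, gave 25 and 32 reads on a chain of 1 intron that ran from chr17:35994561 to 36007399. Only 8.05% of its reads were on known transcripts. For Gm13205, inside the transcription factor gene Casz1, a chain of 2 introns held 26 and 6 of its 31 and 8 reads. 9330151L19Rik, Gm40578 and Gm45552 had 33, 33 and 22 reads on such chains. At the other end of the transcript, AATAAA or ATTAAA was present in the last 50 bases of the leading known transcript in 59.3% of 113 genes. The share was 66.4% of 116 lincRNA and 75.8% of 10023 coding genes.

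The coding partner was usually the higher of a pair. Over 138 pairs with at least 10 reads in each gene, the median ratio of noncoding to coding reads was 0.259 (0.231 in replicate 1 and 0.275 in replicate 2). With spliced reads only the median was 0.441 over 50 pairs, and with known transcripts only 0.549 over 32. The coding gene was higher in both libraries in 107 pairs, the noncoding gene in 14. In 34 pairs the noncoding gene was under 10% of its partner. A further 37 partners had under 10 reads, and over all 175 genes the noncoding gene was higher in both libraries in 49. The lowest ratios stood beside abundant coding genes such as Actg1, where 0610009L18Rik made up 0.736% (0.497 to 1.05%) and 0.708% (0.439 to 1.08%) of the reads of the pair. Across the 138 pairs the levels of the 2 genes had a Spearman rho of 0.043, and their log2 ratios between libraries one of 0.035. Pairs share libraries and depth, so these are descriptions.

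**Figure D4:**
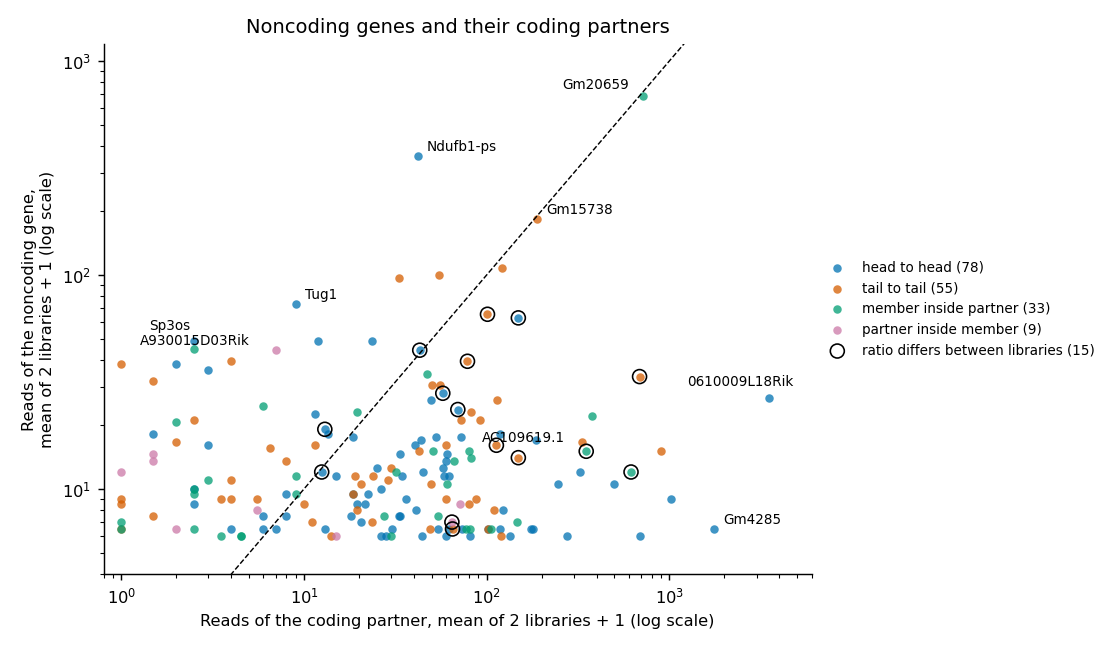
Each point is 1 noncoding gene. The horizontal axis is the mean reads of its coding partner + 1 and the vertical axis its own mean reads + 1, over 2 libraries and on log scales, with colour for arrangement. The dashed line marks equality and circles mark the 15 pairs whose ratio differed between libraries. Most points lie under the line. Ndufb1-ps and Tug1 lie above it, and Gm20659 and Gm15738 lie on it.

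Between the 2 libraries 7 of these genes differed. A gene was called where the exact binomial test against library totals gave an adjusted p under 0.05 (Benjamini-Hochberg over all 11838 genes with at least 10 reads) and the counts, with 0.5 added, differed at least 2-fold. In replicate 2, 4 of the 175 were higher (2.29%, against 1.36% of all genes tested) and 3 lower (1.71%, against 5.41%). Counting both directions, 7 of 175 were called, against 6.77% of all genes. Among genes with at least 20 reads, 7 of 89 were called, against 7.93% of all 9767 such genes. At an unadjusted p under 0.05 there were 30 (17.1%, against 21.8% of all genes). The median log2 ratio of replicate 2 to replicate 1 was 0.20 over the 175 genes and 0.0025 over all genes tested, and 109 genes were above 0. With a two-sided p taken from the less likely outcomes, 10 genes were higher, and with spliced reads only there were 0 of 81, since none of the 4 has a spliced read. Beside the background, the share called higher in replicate 2 was larger and the share called lower smaller, on 4 and 3 genes. Genes with more reads are called more readily, and the median was 20 reads here against 63 for coding genes. Whether these genes differ from the background was not tested.

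All 4 genes called higher lacked any spliced read and were led by unspliced reads in partner exons. Gm15489, across the dynactin subunit gene Dctn5, had 30 reads in replicate 1 and 99 in replicate 2, with a log2 ratio of 1.71 (adjusted p = 2.8e-08, exact binomial test). The other strand of its spans held 27 and 69 unspliced reads, all of Dctn5. Gm17035, in the stress-response gene Ndrg1, had 4 and 24 reads and a log2 ratio of 2.45. Gm28221, in the calcium sensor gene Ncald, had 3 and 19 and a log2 ratio of 2.48. St8sia3os, which contains the sialyltransferase gene St8sia3, had 0 and 12. No fold is given, because a count of 0 leaves the level in replicate 1 known only to be under the limit. The 32 genes led by reads in partner exons had a median log2 ratio of 0.90, and the 95 led by spliced reads one of 0.10.

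The 3 genes called lower were of mixed kind. Gm47163, unspliced in its own exon, had 78 and 18 reads and a log2 ratio of -2.08 (adjusted p = 1.71e-08, exact binomial test). Gm42984, whose start lies 39 bases from that of Tapt1, had 30 and 6, a log2 ratio of -2.23. Nearly all of its reads were unspliced and lay by less than 50% in annotated exons of either gene. Gm13205, spliced in 94.9% of its reads, had 31 and 8, a log2 ratio of -1.89. Of the 92 genes with at least 50% spliced reads, Gm13205 was the only gene called, with none higher, and their median log2 ratio was 0.0025. The 83 genes under 50% had a median of 0.45. The same division of all genes tested gave medians of 0.0025 over 9342 and 0.15 over 2496 genes. Among those 2496, 3.04% were called higher and 3.37% lower, against 0.91% and 5.95% among the 9342.

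**Figure D5:**
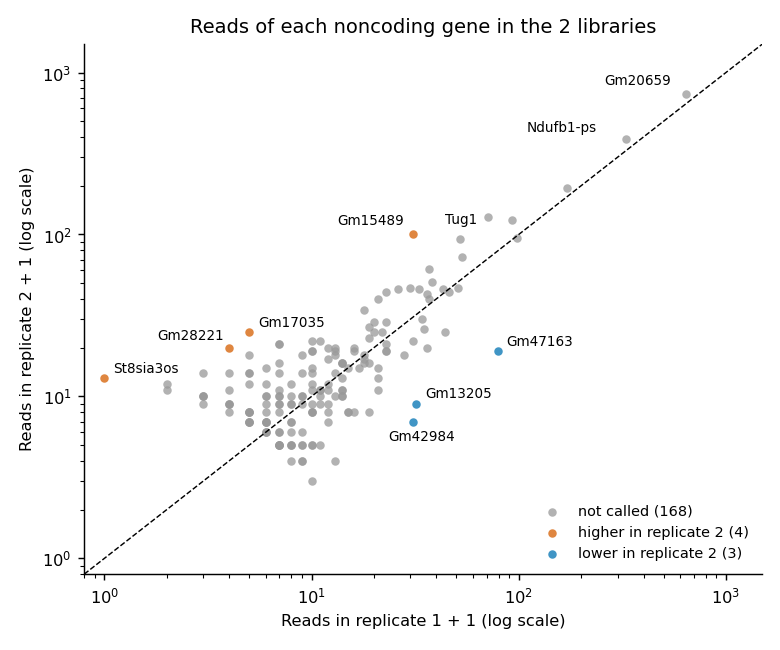
Each point is 1 noncoding gene, with its reads + 1 in replicate 1 (horizontal) and replicate 2 (vertical) on log scales, and the dashed line marks equal counts. The 4 genes called higher in replicate 2 (orange) and the 3 called lower (blue) are named. Most genes sit at low counts, where the scatter is wide, and the abundant Gm20659 and Ndufb1-ps lie close to the line.

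The ratio of a noncoding gene to its partner was compared between libraries by Fisher's exact test. Adjustment was over all 2908 genes with an opposite-strand coding partner and at least 10 reads in both genes. The ratio was higher in replicate 2 in 12 of 138 pairs and lower in 3, which is 10.9% against 9.15% of all pairs (4.68% higher and 4.47% lower). Coding genes that were each other's partner entered this background from both sides, with the ratio inverted. Its near-equal shares higher and lower are therefore no background for direction. At an unadjusted p under 0.05 there were 28 (20.3%, against 20.4% of all pairs). With spliced reads only, 5 of 50 pairs were higher and 0 lower, and with the nearest-start partner 5 of 121 were higher and 3 lower. The share over all pairs was not computed under these settings. In several pairs it was the coding gene whose count differed. A330009N23Rik, spliced in 88.9% of reads, had 21 and 24, whereas Grasp, a scaffold gene of glutamate receptor trafficking, had 131 and 6. The log2 difference of the ratio was 4.53 (adjusted p = 1.89e-10, Fisher's exact test). AC109619.1 had 13 and 15 reads beside 589 and 110 of Macrod1, an ADP-ribose hydrolase gene, a log2 difference of 2.61. Rab10os had 35 and 42 beside 114 and 41 of Rab10, a membrane traffic GTPase gene, and Cep83os 42 and 45 beside 63 and 21 of Cep83. 2810013P06Rik had 52 and 72 beside 202 and 94 of Ankrd11, a chromatin regulator gene. In these 5 pairs the noncoding gene itself was not called between the libraries. In another called pair the counts of both genes moved, with 22 and 43 for D030047H15Rik beside 825 and 546 for Ttyh1.

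In 3 of the 12 pairs with a higher ratio the noncoding gene was itself called higher, namely Gm15489, Gm28221 and St8sia3os. The ratio was lower in replicate 2 for A830082K12Rik, 35 and 19 beside 43 and 70 of Nr2f1, a nuclear receptor gene of cortical patterning, with a log2 difference of -1.56. Zfp652os, all of whose 15 and 7 reads were spliced, stood beside 5 and 18 of the zinc finger gene Zfp652, a log2 difference of -2.80. Gm42984 and Tapt1, with 11 and 13 reads for Tapt1, were the other such pair.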

How the data were processed

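Read counts per transcript model and TALON annotations of 2 long-read libraries were used as deposited, per the file headers, with GENCODE M21 names on mm10. Platform, aligner and strand handling: not given in the sources used here. Counts were summed per gene, and 0 value columns lacked a sample. Gene bodies span the annotated transcripts. Libraries were compared by an exact two-sided binomial test on library totals (smaller tail doubled, a convention chosen after the data were seen), pairs by Fisher's exact test, with Benjamini-Hochberg adjustment (scipy 1.17.1, pandas 2.3.3, Python 3.11.15), after a test on simulated data. Alternatives used edgeR 4.0.16 and DESeq2 1.42.0 size factors, which served only for scaling. No gene had a near copy at 97% identity over 200 bases (blastn 2.17.0).

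The members and lists were chosen with earlier results of these data known. Genes named were drawn from lists fixed by rule. These were the 12 antisense and 8 bidirectional genes of highest CPM, all called genes, the 8 highest ratios and up to 8 called pairs. The 5 with most reads on unannotated chains and the listed brain and imprinting genes were added. Not every gene on these lists is described, and those left out include called pairs and high ratios. Gt(ROSA)26Sor, Dlx1as, A830082K12Rik, Zfp652os, 2810029C07Rik, Gm45606 and CT010496.1 fall outside those lists and were chosen after their values were seen.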

Additional observations from a re-analysis of the deposited data

How the results depend on the processing

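No paired analysis was possible because both libraries belong to a single group. The 4 genes called higher in replicate 2 became 0 of 68 with known transcripts only, 0 of 81 with spliced reads only and 1 of 145 with unspliced reads over partner exons left out, beside 0.824%, 0.863% and 1.34% of all genes. None of the 4 has a spliced or known-transcript read and all are led by reads over partner exons, so these settings remove them by construction. They became 10 with a two-sided p from the less likely outcomes, where 1.61% of all genes were higher. The doubled tail was chosen in its place after seeing the data, and leaving out unspliced reads over partner exons was likewise added after seeing them. The 3 genes called lower became 1 of 68 with known transcripts only, where 10.4% of all genes were lower. Pairs with a higher ratio numbered 5 of 50 instead of 12 of 138 with spliced reads only and 5 of 121 with the nearest-start partner. The 3 lower became 0 with spliced reads only and stayed 3 with the nearest-start partner. The share over all pairs was not computed under these settings. The median ratio of 0.259 was 0.549 with known transcripts only, 0.441 with spliced reads only and 0.339 with the nearest-start partner, over fewer pairs (32, 50 and 121). The summed level of 2975 CPM was 1768 with unspliced reads over partner exons left out. Leaving out 1 library gave a median spliced share of 50 to 66.7% over all genes and 1.03 to 11.1% tail to tail, a median ratio of 0.231 to 0.275, and 2736 to 3214 CPM. Scaling by TMM or DESeq2 size factors, a minimum of 20 reads and no minimum each gave 4 higher and 3 lower, all 7 of the same genes except with 20 reads, where 6 were the same. The 39 log2 ratios that could be recomputed for the 7 called genes kept direction and side of the threshold, but with known transcripts only, or spliced reads only, 1 gene had reads enough for a value, and 3 had with unspliced reads over partner exons left out. Depth was low, with a median of 20 reads a gene, and 9 genes passed an adjusted p of 0.05 by the exact binomial test at any size of difference.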
